A study of Homo sapiens with 12 samples.

Results

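The genes described here are ZEB1, ZEB2, SNAI1, SNAI2, TWIST1 and TWIST2, 6 transcription factor genes taken by name from the 15414 genes listed in the read count tables of AC16 cells and their exosomes. The established human line AC16 was derived by fusion of ventricular cardiomyocytes and transformed fibroblasts. Exosomes are vesicles of endosomal origin that carry RNA out of a cell. The 12 libraries formed 4 groups of 3: exosomes labelled Ang, exosomes labelled Con, whole cells labelled Ang and whole cells labelled Con. The series title names cellular and exosomal RNAs and cardiomyocyte hypertrophy as its subject, and the labels give neither the meaning of Ang and Con nor a dose or a time. All groups share the AC16 line. The labels do not tell whether a group's 3 libraries are separate cultures, so the p-values cover library-to-library spread that may be technical. The kit for RNA extraction and the kit for library preparation both differed between exosomes and cells, so the kits and the compartment cannot be told apart. All 6 genes were listed in both compartments. The genes were chosen by name as a family, with their read counts in the 12 libraries and earlier results of these data in view. No contrast or threshold was applied to them, and p-values from the fits across all genes are given as descriptions of these libraries.

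These factors are best known from the epithelial-to-mesenchymal transition, in which epithelial cells lose their junctions and take on a migratory, fibroblast-like state. ZEB1 and ZEB2 are zinc finger and homeodomain proteins, SNAI1 (Snail) and SNAI2 (Slug) are zinc finger proteins, and all of them bind E-box motifs and repress epithelial genes such as CDH1, which encodes E-cadherin. TWIST1 and TWIST2 are basic helix-loop-helix (bHLH) proteins that pair with E proteins. In the heart, members of these families act in the endocardial cushions that form the valves and in the epicardial cells that become fibroblasts.

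The messenger RNAs of the ZEB pair carry the best known control of this network, the miR-200 family. Its mature microRNAs are printed with bases 2 to 8, the seed, in capitals, because the seed groups them and sets the sites searched. Sequences are from RefSeq on GRCh38.p14. miR-200b-3p, miR-200c-3p and miR-429 share one seed, and miR-200a-3p and miR-141-3p share the other.
hsa-miR-200b-3p: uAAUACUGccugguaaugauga
hsa-miR-200c-3p: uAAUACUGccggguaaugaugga
hsa-miR-429: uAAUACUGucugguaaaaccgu
hsa-miR-200a-3p: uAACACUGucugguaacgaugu
hsa-miR-141-3p: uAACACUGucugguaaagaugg

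The site of the first seed, CAGTATT, was searched on the sense strand of the 3′ untranslated region (UTR) of each gene's principal transcript in GENCODE release 29. It occurred 5 times in ZEB1 and 5 times in ZEB2. Of 19553 genes with such a region, 6 held 5 or more, while 14.3% held at least 1. SNAI2 held 1 site, and SNAI1, TWIST1 and TWIST2 held none in these windows. The site of the second seed, CAGTGTT, occurred 3 times in ZEB1 and 4 times in ZEB2, was found in 16.1% of all 3′ UTRs, and had no match in the other members. The searched regions were 1941 bases long in ZEB1 and 5373 in ZEB2, against 709 to 1206 in the others. One site of each ZEB gene is shown with its flanks, the match in capitals; ZEB1 lies on the plus strand and ZEB2 on the minus strand of GRCh38.
ZEB1, chr10:31527622-31527650: ttttatcttatCAGTATTatcactcttat
ZEB2, chr2:144389042-144389070: ctaccatacatCAGTATTtttattattat
Other seeds known from these genes gave few matches. The miR-34a-5p site CACTGCC occurred 1 time, in SNAI1 (13.8% of all 3′ UTRs held it), and the miR-205-5p site ATGAAGG 1 time, in ZEB1 (9.9%). The miR-203a-3p site CATTTCA occurred 2 times in ZEB1, 1 time in ZEB2 and 1 time in SNAI2 (17.4%). Small RNAs were not analysed here, so no level of these microRNAs stands beside the sites.

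Reads assigned to genes numbered 535442 to 587783 per library in Ang exosomes and 717263 to 745311 in Con exosomes, against 9202471 to 10623090 in Ang cells and 9442962 to 11212674 in Con cells. Levels are given in CPM, read counts scaled to a common library size, with trimmed mean of M-values (TMM) scaling over all 12 libraries. Markers of cardiomyocytes were only partly present in the RNA of the line. Of 15 cardiomyocyte markers, 10 were listed in cells and 7 averaged at least 10 reads. The sarcomere genes MYH6, MYL2, MYL7 and TNNC1 were not listed, and TNNT2 (cardiac troponin T) had 0 to 9 reads per cell library, while TTN had 709 to 935 and the cardiac factor gene GATA4 239 to 335. All 11 fibroblast markers were listed, with a summed level of 4553 to 4976 CPM in Ang cells and 5076 to 5350 in Con cells, scaled to raw totals. The same sum over the cardiomyocyte markers was 117 to 133 and 113 to 120 CPM. The fibroblast sum includes COL1A1, which alone had 25706 to 37354 reads per cell library. No reference cardiomyocytes or fibroblasts are among the 12 libraries. Of 40 epithelial genes, 33 were listed in cells and 26 averaged at least 10 reads. Their summed level was 483 to 523 CPM in Ang cells and 522 to 539 in Con cells, scaled to raw totals. KRT18 and KRT8 had medians of 2551 and 811.5 reads over the cell libraries. ESRP1, GRHL2, OVOL1, OVOL2, CRB3, RAB25 and TJP3 were not listed in cells. Of 10 markers each, 8 endothelial, 5 immune and 3 blood or serum genes were listed in cells, with sums of at most 42.5, 74.1 and 1.04 CPM per library.

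In exosomes 4 of the 6 genes stood at a higher share of the reads than in cells: ZEB1, TWIST2, TWIST1 and ZEB2. ZEB1 was 6.82-fold higher, TWIST2 5.81-fold, TWIST1 4.34-fold and ZEB2 1.72-fold. For SNAI2 the estimated difference was small (log2 -0.08, SE 0.35), but its exosome libraries ran from 7.51 to 92.1 CPM. SNAI1 had too few reads to tell. Over all 12 libraries and 11811 genes tested with edgeR's quasi-likelihood test, 17.6% passed as higher in exosomes and 19.5% as lower, 37.1% in all, at a Benjamini-Hochberg adjusted p of 0.05. For ZEB1, TWIST2, TWIST1 and ZEB2 the CPM ranges of the 6 exosome and 6 cell libraries did not overlap, against 10.1% of all tested genes higher without overlap. In bulk libraries such as these, fewer cells or vesicles with an RNA and less of it in each cannot be told apart.

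**Figure D1:**
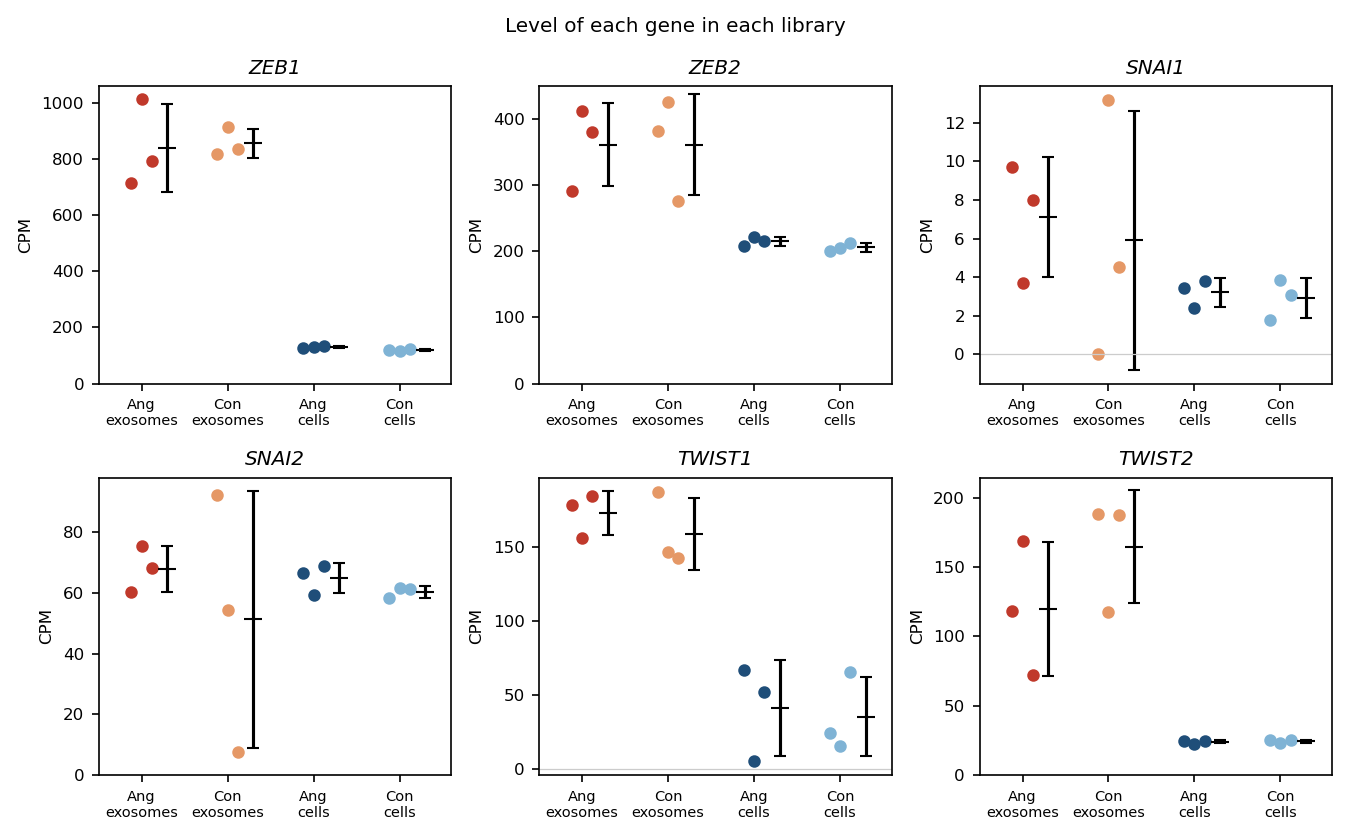
CPM of each gene (vertical axis, linear, one scale per panel) in Ang exosomes, Con exosomes, Ang cells and Con cells; points are the 3 libraries of a group and the bar beside them is mean ± SD. ZEB1, ZEB2, TWIST1 and TWIST2 lie higher in all 6 exosome libraries than in any cell library, TWIST1 spreads widely in cells, and 1 Con exosome library has little SNAI2.

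ZEB1 (ENSG00000148516, chromosome 10, 31318495 to 31529814, plus strand) had 367, 552 and 395 reads in the Ang exosomes and 567, 623 and 555 in the Con exosomes, against 1226, 1406 and 1521 in the Ang cells and 1188, 1223 and 1470 in the Con cells. These came to 839 ± 157 CPM in Ang exosomes, 855 ± 52.6 in Con exosomes, 129 ± 4.68 in Ang cells and 119 ± 2.83 in Con cells (SD, n = 3 each). The lowest exosome library, at 712 CPM, was above the highest cell library, at 134 CPM. The difference was log2 2.77 (SE 0.102; edgeR, Benjamini-Hochberg adjusted p = 1.53e-09), and 1.24% of the tested genes had a fold change at least as high. Within the Con libraries it was log2 2.85 (SE 0.102) and within the Ang libraries log2 2.71 (SE 0.16).

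ZEB2 (ENSG00000169554, chromosome 2, 144364364 to 144524583, minus strand) is the paralogue of ZEB1 and represses many of the same genes. It had 150, 224 and 190 reads in the Ang exosomes and 265, 290 and 184 in the Con exosomes, against 2039, 2414 and 2441 in the Ang cells and 2012, 2138 and 2556 in the Con cells. Its level was 361 ± 62.5 CPM in Ang exosomes and 361 ± 76.7 in Con exosomes, against 215 ± 6.86 in Ang cells and 206 ± 6.64 in Con cells (SD, n = 3 each). The groups did not overlap, but the gap was narrow, from 276 CPM in the lowest exosome library to 221 in the highest cell library. The difference was log2 0.78 (SE 0.127; edgeR, adjusted p = 0.000468), and 17.6% of tested genes had a fold change at least as high. Of the annotated exon length, 4.23% of ZEB1 and 5.18% of ZEB2 is shared with genes on the other strand, among them ZEB1-AS1 and ZEB2-AS1, and whether reads were counted by strand is not given in the sources used here. Of the 50-base stretches of the principal ZEB2 transcript, 0.895% recur in the pseudogene ZEB2P1, and none of those of ZEB1 recur in another gene.

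The order of the ZEB pair by reads thus differed between the compartments. ZEB1 made up 71%, 71.1% and 67.5% of the ZEB1 and ZEB2 reads in the Ang exosomes and 68.1%, 68.2% and 75.1% in the Con exosomes. In the Ang cells its share was 37.5%, 36.8% and 38.4%, and in the Con cells 37.1%, 36.4% and 36.5%. Exact 95% binomial intervals ran from 63.6% to 78.2% over the exosome libraries and from 34.8% to 39.9% over the cell libraries; they cover counting error only. Scaled to mRNA length, ZEB1 stood at 3.66 to 5.31 times ZEB2 in exosomes and at 1.01 to 1.1 times ZEB2 in cells. Near equality in cells held for the length of the principal mRNA alone. Per kilobase of all annotated exons, ZEB1 averaged 97.9 CPM and ZEB2 14.4 CPM over the exosome libraries, against 14.4 CPM for ZEB1 and 8.39 CPM for ZEB2 over the cell libraries. Within a compartment the shares of Ang and Con libraries overlapped.

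**Figure D2:**
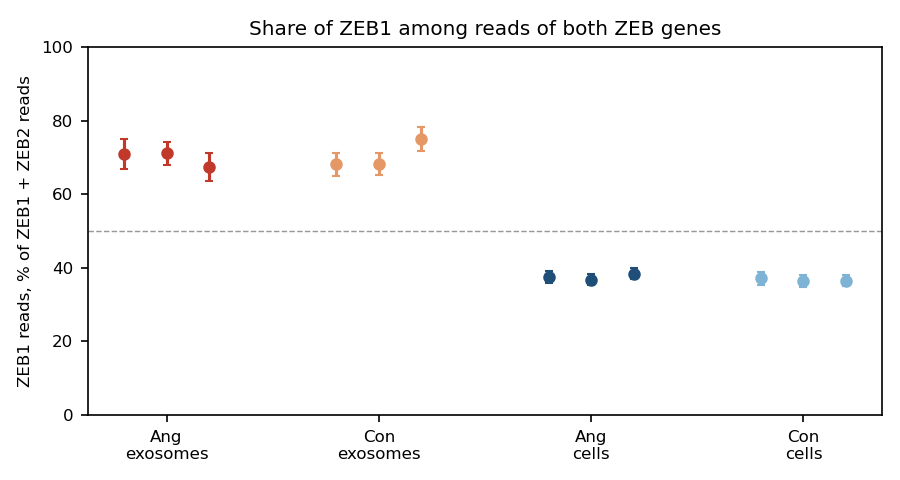
ZEB1 reads as a percentage of ZEB1 plus ZEB2 reads (vertical axis) in each library of the 4 groups; bars are exact 95% binomial intervals and the dashed line marks equal reads. The 6 exosome libraries lie between 67.5% and 75.1% and the 6 cell libraries between 36.4% and 38.4%.

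The TWIST pair was higher in exosomes as well. TWIST2 (ENSG00000233608, chromosome 2, 238848032 to 238910543, plus strand), known for its part in dermis and mesenchyme, had 61, 92 and 36 reads in the Ang exosomes and 131, 80 and 125 in the Con exosomes. The Ang cells had 240, 247 and 278 reads and the Con cells 251, 243 and 302. Its level was 120 ± 48.5 CPM in Ang exosomes and 165 ± 40.8 in Con exosomes, against 23.9 ± 1.06 in Ang cells and 24.5 ± 1.01 in Con cells (SD, n = 3 each). It was among the steadiest of the 6 genes in cells, where its highest library was 1.11 times its lowest. The difference between exosomes and cells was log2 2.54 (SE 0.213; edgeR, adjusted p = 2.24e-06).

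TWIST1 (ENSG00000122691, chromosome 7, 19020991 to 19117672, minus strand), needed for cranial mesenchyme and valve precursors in mice, had 92, 85 and 92 reads in the Ang exosomes and 130, 100 and 95 in the Con exosomes. The Ang cells had 654, 56 and 592 reads and the Con cells 244, 165 and 788. Its level was 173 ± 14.8 CPM in Ang exosomes, 159 ± 24.5 in Con exosomes, 41.3 ± 32.2 in Ang cells and 35.2 ± 26.7 in Con cells (SD, n = 3 each). The exosome libraries were close together, while the cell libraries ranged from 5.14 to 66.6 CPM and fell on both sides in each group. The difference was log2 2.12 (SE 0.517; edgeR, adjusted p = 0.00762). It passed within the Con libraries (log2 2.18, SE 0.529, adjusted p = 0.0299; 11.3% of genes passed as higher there) and not within the Ang libraries (log2 2.07, SE 0.789, adjusted p = 0.115; 9.58% passed), where the lowest cell library stood.

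The spread of TWIST1 in cells was unusual for a gene of its level. Its SD within groups was 1.53 on the log2(CPM + 1) scale, against a median of 0.146 over 4929 genes within 1 log2 unit of its level. Of all 13331 genes tested in cells, 0.465% were at least as variable. Its lowest library, the Ang cells of replicate 2, was 7.44-fold below its cell median. In cells, 2.57% of the 11570 genes whose median reached 40 reads had a library more than 4-fold below the median. The other members did not share this spread: within-group SDs in cells were 0.0435 for ZEB1, 0.0491 for ZEB2, 0.0826 for SNAI2, 0.0562 for TWIST2 and 0.351 for SNAI1. In exosomes the SD of TWIST1 was 0.181, and 93.6% of the genes tested there were at least as variable. Of TWIST1's exon length, 6.94% is shared with AC003986.2 on the other strand, and no stretch of 50 bases of its principal transcript recurs in another gene's annotated transcripts. The part of reads from the other strand in this spread was not tested.

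Both SNAI genes lacked a difference past the threshold. SNAI2 (ENSG00000019549, chromosome 8, 48917604 to 48921740, minus strand), which acts in neural crest and mesenchyme, had 31, 41 and 34 reads in the Ang exosomes and 64, 37 and 5 in the Con exosomes. The Ang cells had 652, 648 and 781 reads and the Con cells 586, 643 and 737. Its level was 67.9 ± 7.58 CPM in Ang exosomes and 51.3 ± 42.4 in Con exosomes, against 64.9 ± 4.92 in Ang cells and 60.4 ± 1.94 in Con cells (SD, n = 3 each). The exosome libraries surrounded the cell libraries, and the Con exosomes of replicate 3 were 8.54-fold below the exosome median. The difference was log2 -0.08 (SE 0.35; edgeR, adjusted p = 0.87), and log2 0.17 without that library (adjusted p = 0.465).

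SNAI1 (ENSG00000124216, chromosome 20, 49982999 to 49988886, plus strand), whose messenger RNA and protein are known to be short-lived, was the least abundant member. It had 5, 2 and 4 reads in the Ang exosomes and 0, 9 and 3 in the Con exosomes, against 34, 26 and 43 in the Ang cells and 18, 40 and 37 in the Con cells. Its level was 7.13 ± 3.11 CPM in Ang exosomes and 5.91 ± 6.72 in Con exosomes, against 3.22 ± 0.738 in Ang cells and 2.9 ± 1.04 CPM for Con cells (SD, n = 3 each). The groups overlapped. With 23 reads over the 6 exosome libraries, the difference of log2 1.08 (SE 0.588; edgeR, adjusted p = 0.171) could not be placed on either side of 0 at this depth. It passed with DESeq2 (log2 1.11, adjusted p = 0.0435) and without the Con exosome library of replicate 1, which held no read (log2 1.36, adjusted p = 0.0368). Without the Con exosome library of replicate 2, which held 9 of the 23 reads, it was log2 0.37 (adjusted p = 0.676).

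The median of all tested genes was log2 -0.15 in exosomes over cells. Scaled to raw library totals in place of TMM, this median moved by -0.21 and the share of calls that were higher was 31.8% in place of 47.5%. On that scale ZEB1 had log2 2.55, TWIST2 2.32, TWIST1 1.91 and ZEB2 0.57, and the same 4 genes passed.

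**Figure D3:**
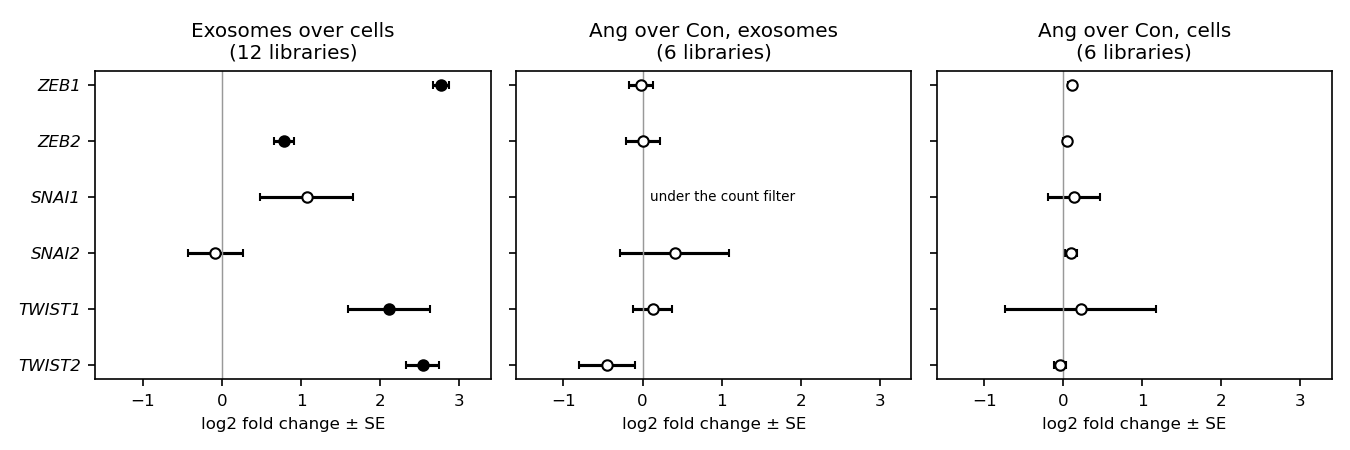
Log2 fold change ± SE (horizontal axis) of the 6 genes for exosomes over cells, for Ang over Con in exosomes and for Ang over Con in cells; filled points passed an adjusted p of 0.05 and open points did not. ZEB1, ZEB2, TWIST1 and TWIST2 are filled and to the right of 0 for exosomes over cells, and no point is filled for Ang over Con.

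Levels of different genes were compared per kilobase of the principal mRNA. In exosomes the order was ZEB1 at 156 ± 19.3 CPM per kilobase, TWIST2 at 101 ± 33.5, TWIST1 at 99.6 ± 11.8, ZEB2 at 37.8 ± 6.56, SNAI2 at 24.5 ± 11.8 and SNAI1 at 3.87 ± 2.8 (SD, n = 6). There TWIST1 lay above ZEB2 without overlap, and the ranges of the other neighbours overlapped. Over the 6 cell libraries SNAI2 stood at 25.8 ± 1.72 CPM per kilobase, TWIST1 at 23 ± 16, ZEB1 at 22.9 ± 1.21, ZEB2 at 22.05 ± 0.819, TWIST2 at 17.2 ± 0.697 and SNAI1 at 1.81 ± 0.488 (SD, n = 6). The ranges of neighbours overlapped from SNAI2 down to ZEB2, while ZEB2 lay above TWIST2 and TWIST2 above SNAI1 without overlap. The order depended on the length used. Per kilobase of all annotated exons, the mean in exosomes was 97.9 CPM for ZEB1, 81.6 for TWIST1, 75.7 for TWIST2, 17.6 for SNAI2, 14.4 for ZEB2 and 3.87 for SNAI1. In cells it was 18.8 CPM for TWIST1, 18.5 for SNAI2, 14.4 for ZEB1, 12.9 for TWIST2, 8.39 for ZEB2 and 1.81 for SNAI1, and ZEB2 lay below TWIST2 without overlap. On both scales SNAI1 had the lowest mean, and in exosomes ZEB1 had the highest. The genes that were higher in exosomes included both long and short mRNAs. ZEB1 and ZEB2 had mRNAs of 5423 and 9541 bases with 39.8% and 39.2% G and C, while TWIST2 and TWIST1 had 1404 and 1666 bases with 57% and 57.2%. SNAI2 had 2428 bases with 41.8%, and SNAI1 1686 bases with 58.2%. A relation of the fold change to length or to G and C content was not tested.

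**Figure D4:**
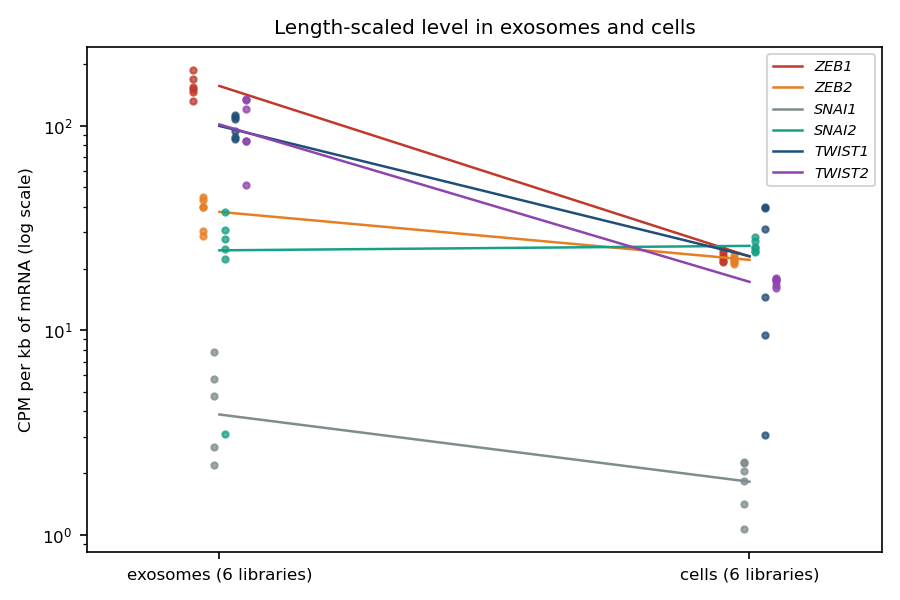
CPM per kilobase of principal mRNA (vertical axis, log scale) in 6 exosome and 6 cell libraries; points are libraries, lines join the means of a gene, and 1 exosome library with no SNAI1 read is not drawn. On this length scale the means spread from 3.87 to 156 in exosomes, and in cells all genes but SNAI1 have means from 17.2 to 25.8.

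Ang was compared with Con in each compartment to see whether the label went with a change of these genes. No member passed. In cells edgeR called 0 of the 6 members and 0% of 13331 genes tested, of which 816 had an unadjusted p under 0.05 and DESeq2 called 50. No member had an unadjusted p under 0.05, and DESeq2 called 0 of the 6. ZEB1 had the smallest p. Its 3 Ang cell libraries (125 to 134 CPM) lay above its 3 Con cell libraries (117 to 122 CPM), as 7.8% of all tested genes did. The difference was 1.08-fold (log2 0.11, SE 0.0542, adjusted p = 0.828). For the other 5 genes the groups overlapped in cells. ZEB2 had log2 0.05 (SE 0.0503) and SNAI2 log2 0.10 (SE 0.0782). SNAI1 had log2 0.14 (SE 0.333), TWIST1 log2 0.22 (SE 0.959) and TWIST2 log2 -0.04 (SE 0.0799). All 6 had adjusted p-values of 0.828 to 0.977 (edgeR). The sign of TWIST1 changed without the Con library of replicate 2 (log2 -0.13) or the Ang library of replicate 1 (log2 -0.31).

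In exosomes edgeR called 0 of the 5 members tested, against 0.012% of 8327 genes, and SNAI1 was under the count filter. No member had an unadjusted p under 0.05, and DESeq2 called 0 of the 5. The groups overlapped for all 6 genes. TWIST2 had the farthest fold change, log2 -0.45 (SE 0.357), with its lowest library in Ang. SNAI2 had log2 0.41 (SE 0.686) and TWIST1 log2 0.13 (SE 0.247). ZEB1 had log2 -0.02 (SE 0.149) and ZEB2 log2 0.01 (SE 0.22). Without the Con exosome library of replicate 3, which held 5 SNAI2 reads, SNAI2 had log2 -0.11. A fit to the 12 libraries together compared the Ang change of exosomes with that of cells. No member passed, while 0.0254% of 11811 genes did, and the differences ran from log2 -0.42 for TWIST2 to log2 0.30 for SNAI2 (edgeR, adjusted p 0.872 to 0.997). None of the 6 had an unadjusted p under 0.05, and DESeq2 called none. Counts were also simulated with the same spread for all genes, the mean of the groups' common values. In such exosome counts, changes of log2 1 were recovered for 3 of 100 random genes and changes of log2 2 for 38 of 100. Changes of these sizes could thus be missed. In cells the same figures were 39 and 99 of 100, and for the difference of the Ang changes 0 and 6 of 100. These figures do not describe members with more or less spread than the common value, such as TWIST1 in cells.

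Circular RNAs (circRNAs), rings formed when the end of an exon is spliced back onto an upstream exon, were a readout that the choice of the genes did not use. Of the 5700 circRNAs listed in either compartment, 4 lay within a member gene on its strand, 2 in ZEB1 and 2 in ZEB2. A circle of exon 2 of ZEB1 (chromosome 10, 31461037 to 31461237) had 2 junction reads, in the Ang cells of replicate 1, and 0 in the other cell libraries. A circle of exons 3 to 6 of ZEB2 (chromosome 2, 144403916 to 144430026) had 3 junction reads, in the Con exosomes of replicate 1, and 0 in the other exosome libraries. A circle of exons 2 to 4 of ZEB2 (144424796 to 144517419) had 3, in the Ang cells of replicate 3. A junction in ZEB1 at 31355144 to 31358333, which lies at no pair of annotated exon ends, had 2 in the Ang cells of replicate 2 and 2 in the Con cells of replicate 3. No circle was listed in both compartments. Each rests on 4 reads or fewer, and junctions with 1 read are not in the tables, so no group was compared. The back-splice junctions of the first pair are shown because they are the sequences that tell these circles from the linear mRNA, 1 from cells and 1 from exosomes. The end of the last exon is in lower case and the start of the first exon in capitals, read from GENCODE release 29 transcripts on the gene's strand.
ZEB1 exon 2 circle, chr10:31461037-31461237: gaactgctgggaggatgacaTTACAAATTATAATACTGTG
ZEB2 exon 3 to 6 circle, chr2:144403916-144430026: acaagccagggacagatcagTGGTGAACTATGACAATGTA

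Other genes of the network were followed in lists by role, whose counts stand against 17.6% of all tested genes higher and 19.5% lower in exosomes. Among 23 further transcription factor genes of the epithelial-to-mesenchymal transition, 16 were tested in exosomes against cells. Of these, 8 rose in exosomes, 0 fell and 8 did not pass, with a median of log2 1.32 against -0.15 over all tested genes. SOX9, a factor of valve and cartilage mesenchyme, averaged 336 ± 109 CPM over exosome libraries and 111 ± 5.73 over cell libraries (SD, n = 6 each), a 2.95-fold difference (log2 1.56, SE 0.136; edgeR, adjusted p = 3.23e-06). The forkhead genes FOXC1 (log2 2.41, SE 0.239) and FOXC2 (log2 1.74, SE 0.202) also rose. Of 7 bHLH partners tested, 3 rose and 1 fell. Those that rose were ID1 (log2 3.47, SE 0.348), ID3 (log2 2.74, SE 0.427) and ID2 (log2 1.44, SE 0.282), whose proteins lack a DNA-binding region and hold E proteins away from DNA. ID3 had 34, 14 and 19 reads in Ang exosomes and 3, 13 and 15 in Con exosomes. Its ranges overlapped, at 4.32 to 66 CPM in exosomes and 2.01 to 5.3 in cells. The E protein gene TCF4, which encodes a partner of TWIST proteins, fell (log2 -0.89, SE 0.244). The E protein genes TCF3 (log2 0.44, SE 0.331) and TCF12 (log2 -0.04, SE 0.178) did not pass.

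Of 29 co-repressors and co-activators tested, 6 rose, 7 fell and 16 did not pass (median log2 -0.43), near the shares of all tested genes (17.6% higher, 19.5% lower). The chromatin remodeller gene SMARCA4, a partner of ZEB1, rose to 1474 ± 263 CPM over exosome libraries, against 600 ± 36.3 over cell libraries (SD, n = 6 each; log2 1.28, SE 0.0844). The histone methyltransferase gene EHMT2 (log2 0.95, SE 0.124) and CTBP1 (log2 1.18, SE 0.264), the classical co-repressor of ZEB proteins, rose as well. PRMT5 (log2 -2.78, SE 0.245), the remodeller gene CHD4 (log2 -2.53, SE 0.359) and LIMD1 (log2 -3.59, SE 0.608) fell. LIMD1 had 3, 0 and 0 reads in Ang exosomes and 0, 18 and 23 in Con exosomes, so its fitted fold depended on few reads. Of 22 genes of protein turnover, 4 rose and 3 fell (median log2 -0.21), also near those shares. BTRC, an F-box gene that marks SNAI1 for decay (log2 -1.72, SE 0.39), the kinase gene ATM (log2 -1.13, SE 0.277) and GSK3B, which phosphorylates SNAI1 (log2 -0.64, SE 0.202), fell, and LATS2 (log2 0.64, SE 0.13) and PAK1 (log2 1.08, SE 0.241) rose. FBXL14, an F-box gene for the same proteins, had 18 to 45 reads in each exosome library. In cells it had 0 in 4 libraries, 1 in the Con cells of replicate 1 and 32 in the Con cells of replicate 3, so no fold is given. FBXL14 is nevertheless counted among the 4 turnover genes that rose.

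Of 28 genes of inducing signals, 3 rose and 9 fell (median log2 -0.09), where 17.6% of all tested genes were higher and 19.5% lower. SMAD3 (log2 0.74, SE 0.0999), TGFB1 (log2 1.28, SE 0.295) and MAPK3 (log2 1.01, SE 0.371) rose. The ranges of exosome and cell libraries overlapped for TGFB1 (48.1 to 212 against 41.9 to 82.4 CPM) and MAPK3 (15.5 to 152 against 28.2 to 54.8 CPM). The receptor genes NOTCH2 (log2 -0.999, SE 0.144) and EGFR (log2 -1.03, SE 0.172) and the ligand gene WNT5A (log2 -0.88, SE 0.165) fell. TGFBR1 (log2 -0.93, SE 0.208), TGFBR2 (log2 -0.91, SE 0.197) and SMAD4 (log2 -1.27, SE 0.409) also fell. Of 30 mesenchymal genes 29 were tested, and 5 rose and 12 fell (median log2 -0.40). The count that rose is at the share of all tested genes, while the count that fell is above the 19.5% of all tested genes that were lower. The collagen VI genes COL6A1 (log2 1.51, SE 0.0736) and COL6A2 (log2 1.74, SE 0.119) and the actin-binding gene TAGLN (log2 1.78, SE 0.168) rose. CCN2 (log2 -1.66, SE 0.145), COL1A2 (log2 -1.30, SE 0.116) and the fibrillin gene FBN1 (log2 -1.33, SE 0.13) fell.

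Of 40 epithelial genes, 33 were listed in cells and 19 in both compartments. Of these 19, 6 rose, 2 fell and 11 did not pass (median log2 0.49), against 17.6% higher and 19.5% lower of all tested genes. The median thus leaves out epithelial genes that were listed in cells alone. The keratin genes KRT18 (510 ± 55.4 CPM over exosome libraries and 238 ± 10.8 over cell libraries; SD, n = 6 each; log2 1.10, SE 0.0951), KRT7 (log2 3.02, SE 0.33) and KRT8 (log2 1.41, SE 0.301) rose. The tight junction gene OCLN fell (log2 -1.45, SE 0.261), and F11R, with 7 reads over the 6 exosome libraries against 84 to 133 in each cell library, passed as lower. CDH1, the best known target of these factors, was not listed in exosomes. It had 34, 38 and 35 reads in Ang cells and 81, 44 and 100 in Con cells, which did not overlap (log2 -1.04, SE 0.287; edgeR, adjusted p = 0.795). It was named after its values were seen, and 6.39% of all tested genes were lower in Ang cells without overlap. In the Ang against Con comparisons no gene of the 7 related lists passed with edgeR or DESeq2, in cells or in exosomes. In cells 15 of 158 genes of the lists had an unadjusted p under 0.05, against 816 of all 13331 tested. In exosomes 5 of 119 did, against 316 of 8327. For the difference of the Ang changes between exosomes and cells edgeR called 0 of 150 genes of these lists. There 15 had an unadjusted p under 0.05, against 971 of all 11811 tested. DESeq2 called 3 of the 150 (OCLN, TGFB2 and USP51) and 368 of the 11811. The most abundant members in cells included HMGA2 (log2 0.20, SE 0.0531), TCF3 (log2 -0.01, SE 0.101), DNMT1 (log2 -0.06, SE 0.0318), AXL (log2 0.26, SE 0.329) and COL1A1 (log2 -0.20, SE 0.037), none past the threshold.

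**Figure D5:**
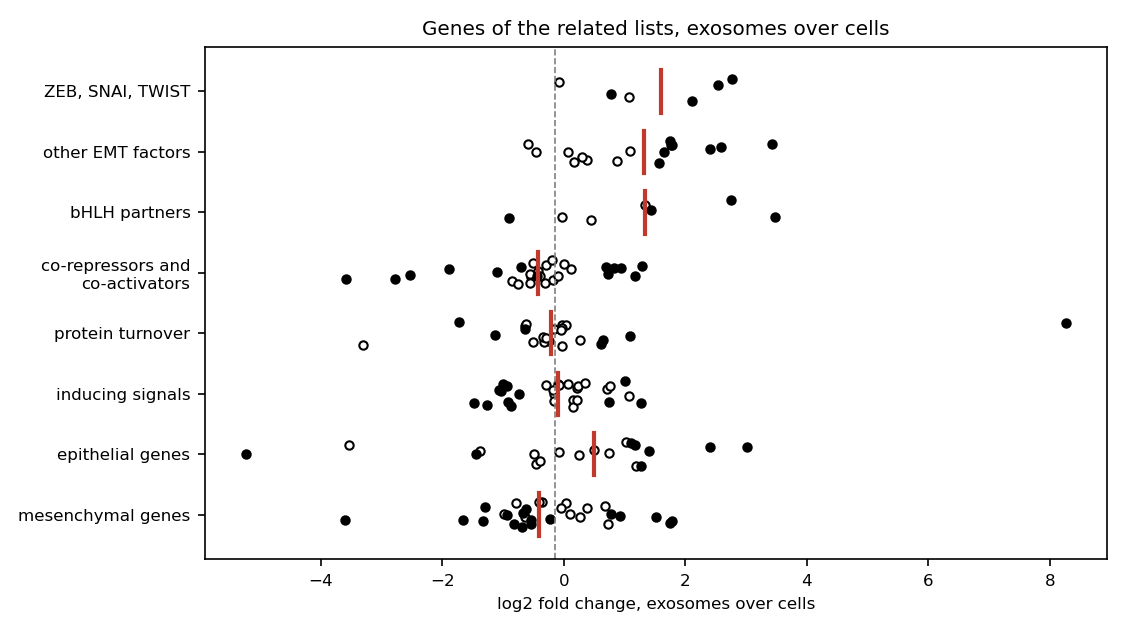
Log2 fold change of exosomes over cells (horizontal axis) for the 6 genes and the 7 related lists; each point is a gene, filled where the adjusted p was under 0.05, the red bar is the median of the list and the dashed line the median of all tested genes (log2 -0.15). The median is log2 1.60 for the ZEB, SNAI and TWIST genes, 1.32 for the other factors and -0.40 for the mesenchymal genes.

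For each member, the genes with the most similar profile over the 12 libraries were found by the root mean square difference in log2(CPM + 1) after centring each gene on its own mean, among genes within 1 log2 unit of its mean level. ARHGAP11A (0.203), FAM50A (0.212) and PTMS (0.235) were nearest to ZEB1, where the median over 1030 candidates was 1.41. RPL14 (0.13), CDKN2A (0.134) and IGFBP4 (0.14) were nearest to ZEB2, with a median of 0.599. AK1 (0.295), CCDC102A (0.368) and KCNK6 (0.373) were nearest to TWIST2, and MLST8 (0.288), PMP22 (0.289) and HMOX2 (0.348) to SNAI2. TWIST1 (CPEB4, 0.598) and SNAI1 (H2AC25, 0.544) had no gene as near. ZEB1 and ZEB2 had no nearest gene in common. How much of each profile comes from the step between exosomes and cells was not tested. For SNAI2 that step was log2 -0.08. These differences are a description of 12 libraries.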

How the data were processed

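Long RNA was sequenced from whole AC16 cells and from their exosomes, in 3 libraries per group. The authors deposited whole-number read counts per gene and per circRNA back-splice junction for each library; GRCh38, HISAT2 and StringTie are named in the submitters' processing notes, while for the counting tool, annotation release and strand setting the labels give nothing. Gene tables of a compartment list the same genes. Coordinates, exon lengths and transcripts are from GENCODE release 29 on GRCh38, whose gene IDs and exon ends were checked against the files. The choice of genes and lists was made with earlier results of these data known.

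Counts were tested with edgeR 4.0.16 (R 4.3.3; TMM, a minimum count of 10 and total of 15, robust quasi-likelihood fits) and Benjamini-Hochberg adjustment over all genes tested, at 0.05. Ang against Con was fitted within each compartment. Exosomes against cells, and the difference of the Ang changes, were fitted to all 12 libraries over genes listed in both. SE is the absolute log2 fold change divided by the square root of F. DESeq2 1.42.0, other scalings, no filter, a replicate block and leaving out each library were alternatives. The fits were tested on simulated data. CPM used 1 scale over 12 libraries; spread used log2(CPM + 1). All members were named, with up to 3 genes of each direction per list by smallest p, or the 2 most abundant where none passed. CDH1 was added after its values were seen, as were TCF3, TCF12, TGFBR1, TGFBR2 and SMAD4 in exosomes against cells. The related lists were transcription factors, bHLH partners, co-repressors and co-activators, protein turnover, inducing signals, epithelial and mesenchymal genes; the microRNAs were chosen after the data were seen. Gene totals of exosome libraries were 535442 to 745311 reads, so low genes are less precise there than in cells.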

Additional observations from a re-analysis of the deposited data

How the results depend on the processing

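ZEB1, ZEB2 and TWIST2 kept their direction and passed in exosomes against cells under each alternative run, with log2 2.69 to 2.82, 0.71 to 0.85 and 2.37 to 2.66 over the fits that left out 1 library. TWIST1 (1.88 to 2.55) did so except within the Ang libraries. SNAI2 ran from -0.46 to 0.17 and was 0.0732 within the Ang libraries. From 4 to 5 members and 3539 to 4535 genes passed with 1 library left out, 2395 genes within Con and 2126 within Ang. SNAI1 ran from 0.37 to 1.36 in 6 of these 12 fits and fell under the count filter in the others. For Ang against Con no member passed under any alternative run. In cells leaving out 1 library gave 0 to 3 genes, SNAI1 at -0.11 to 0.38 and TWIST1 at -0.31 to 1.03, and DESeq2 called 50 genes. In exosomes it gave 1 to 4 genes, ZEB1 at -0.18 to 0.0805, ZEB2 at -0.16 to 0.13 and SNAI2 at -0.11 to 1.14. There DESeq2 called 13 genes, no filter 3 (ZEB2 -0.000115) and the fit to all 12 libraries 22 (ZEB2 -0.000309). For the difference of the Ang changes, DESeq2 called 368 genes and leaving out 1 library gave 1 to 17, with SNAI1 at -0.47 to 1.52, SNAI2 at -0.22 to 1.03, TWIST1 at -0.91 to 0.43 and ZEB2 at -0.23 to 0.0656. Deviations of same-numbered libraries were nearly uncorrelated (correlations -0.0351 to 0.0157). With 3 libraries per group such values cannot tell whether same-numbered libraries share a culture, so their pairing is unknown. With a replicate block, 0 genes passed in exosomes, 1 for the difference of the Ang changes and 3893 in exosomes against cells, and TWIST1 in cells had log2 -0.12. Only between Con exosomes and Con cells did each library correlate best with its own number. The causes of these shifts were not tested. SNAI1 and SNAI2 had the fewest exosome reads of the members, 23 and 212 over 6 libraries.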
